A study of Mus musculus with 20 samples.

Results

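The 8 genes described here, Ppbp, Pf4, Itga2b, Itgb3, Gp5, Gp9, Treml1 and Clec1b, are a list of platelet and megakaryocyte genes, 8 of the 19938 genes that the arrays measured. Each was read from its only probe set with a single gene symbol. The list was chosen by the values of Ppbp and Pf4, which differed between tumors given the IFNbeta vector and tumors given the p19Arf vector, so the values of that comparison describe the choice and carry no test. The samples were tumors of LLC-1 cells, an established line from a mouse Lewis lung carcinoma, grown as implants in C57Bl/6 mice, and every tumor received an adenoviral vector by injection into the tumor, 5 times at intervals of 48 h. Each injection was 25 µl of buffered saline, and its dose in infectious units had a log10 of 8. Arrays were profiled for 4 vector groups of 5. The eGFP group received a vector for enhanced green fluorescent protein and served as the control, the IFNbeta group one for interferon beta, the p19Arf group one for p19Arf, and the p19Arf+IFNbeta group received both genes. All groups, the control included, thus carried an adenovirus, and no uninjected tumor is among the samples. The labels do not give the promoters of the vectors, nor the age or sex of the mice, nor whether the 5 arrays of a group came from separate animals, so p-values measure the spread between these samples only.

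Platelets are small cells without a nucleus, shed by megakaryocytes, and the RNA they hold is made in the megakaryocyte. They store the CXC chemokines Ppbp (Cxcl7, cut to the neutrophil attractant NAP-2) and Pf4 (Cxcl4) in their alpha granules and release them on activation. On the surface, integrin alpha-IIb (Itga2b) and integrin beta-3 (Itgb3) form the fibrinogen receptor, Gp5 and Gp9 belong to the receptor complex for von Willebrand factor, Treml1 is a granule membrane protein exposed on activation, and Clec1b (CLEC-2) is the receptor for podoplanin. Several of the genes are not restricted to platelets: beta-3 also pairs with integrin alpha-v in endothelial and tumor cells, and Pf4 transcript is found in some macrophages. In bulk tumor RNA, fewer cells of a type and less RNA per cell cannot be told apart.

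Ppbp and Pf4 are neighbors in the CXC chemokine cluster of mouse chromosome 5, with 0 annotated genes between them, and the order there is Cxcl5, Ppbp, Pf4, Cxcl3, Cxcl15, Cxcl1 and Cxcl2. The 250 bases before the start of both genes, and of Itga2b as a receptor gene, are shown as a description. A relation of these sequences to the expression values was not tested. The sequences are those of RefSeq on GRCm38.p6, at chr5:90768268-90768517 (plus strand) for Ppbp, chr5:90772185-90772434 (plus strand) for Pf4 and chr11:102469884-102470133 (minus strand) for Itga2b, written toward the gene. Capitals mark matches, on either strand, to an ETS core, a TATA box or an interferon-stimulated response element.
Ppbp: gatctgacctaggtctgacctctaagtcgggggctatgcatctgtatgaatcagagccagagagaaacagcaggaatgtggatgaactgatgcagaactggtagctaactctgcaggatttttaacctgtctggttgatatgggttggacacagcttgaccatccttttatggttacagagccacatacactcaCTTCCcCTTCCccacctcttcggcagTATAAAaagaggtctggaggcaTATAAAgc
Pf4: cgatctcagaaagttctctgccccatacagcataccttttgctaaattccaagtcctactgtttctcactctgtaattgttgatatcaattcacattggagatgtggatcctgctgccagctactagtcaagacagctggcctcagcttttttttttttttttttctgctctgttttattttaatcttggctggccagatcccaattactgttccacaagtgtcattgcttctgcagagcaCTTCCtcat
Itga2b: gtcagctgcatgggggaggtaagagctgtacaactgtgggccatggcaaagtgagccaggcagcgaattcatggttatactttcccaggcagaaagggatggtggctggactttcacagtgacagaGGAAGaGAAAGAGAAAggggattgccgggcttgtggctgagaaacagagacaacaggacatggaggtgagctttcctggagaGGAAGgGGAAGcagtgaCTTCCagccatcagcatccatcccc
The motifs searched were the ETS core GGAAG, the TATA box TATAAA, the GATA motif (GATA with A or T before it and A or G after it), the core of the interferon-stimulated response element and the gamma-activated site TTCNNNGAA, all on both strands. Ppbp held 2 ETS cores, at 56 to 52 and 50 to 46 bases before the start, and 2 TATA boxes, at 30 to 25 and 8 to 3 bases. Pf4 held 1 ETS core at 9 to 5 bases. Itga2b held 4 ETS cores and 1 interferon-stimulated response element, at 118 to 109 bases, which does not overlap the ETS core beside it. Among 32851 promoter windows of this length, 64.1% held at least 1 ETS core, 29.4% at least 2 and 10.7% at least 3. A TATA box was in 12.4% of the windows (2 or more in 2.1%) and a GATA motif in 26.5% (3 or more in 1.35%). An interferon-stimulated response element was in 2.98% and a gamma-activated site in 7.02%. Of the 7 genes with a window, 6 held an ETS core, and a GATA motif was found in Gp5 (3 matches) and Clec1b (1 match). Clec1b, like Ppbp, held 2 TATA boxes, at 195 to 190 and 87 to 82 bases. Gp5 also held 1 gamma-activated site. Itgb3 has no entry in the promoter table.

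The deposited values were log2 expression values of 35556 probe sets, with array medians from 7.49 to 7.61. The spread of an array, meaning the SD of its log2 values, ran from 1.99 to 2.15. Correlations between arrays of 1 group were 0.951 to 0.994, and at most 0.0366% of values were equal on any pair of arrays. The table gives no detection call, so whether a low value such as that of Clec1b stands above background is not known, and the number of arrays limits the precision. The array of IFNbeta replicate 3 stood apart: its score on 11 epidermal genes, the mean of their log2 values, was 8.77, against 6.45 to 6.61 on the other 4 IFNbeta arrays and at most 7.29 elsewhere. The probe sets of the genes that the vectors carried overlapped between the groups: Cdkn2a, which encodes p19Arf, had means of 7.43 (eGFP), 7.38 (IFNbeta), 7.58 (p19Arf) and 7.55 (p19Arf+IFNbeta), and Ifnb1 had means of 6.10, 6.21, 6.00 and 6.03. Whether those probe sets lie within the inserted sequences is not known.

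Ppbp was highest in the IFNbeta group and lowest in the p19Arf group. In log2 units the eGFP arrays read 9.20, 8.47, 8.19, 8.03 and 8.77 (mean 8.53 ± 0.47, SD, n = 5), in the order of replicates 1 to 5. The IFNbeta arrays read 9.43, 8.43, 9.97, 9.40 and 9.78 (9.40 ± 0.60, SD, n = 5). Of these 5 arrays, 4 lay above every eGFP array, and replicate 2 lay within the eGFP range. The p19Arf arrays read 8.47, 8.11, 7.98, 8.01 and 8.22 (8.16 ± 0.20, SD, n = 5), and the p19Arf+IFNbeta arrays 7.92, 9.25, 7.76, 8.44 and 8.68 (8.41 ± 0.60, SD, n = 5). The p19Arf group was the tightest, and the arrays with both genes spanned more than the ranges of the eGFP and p19Arf groups. In the order of the means, IFNbeta was followed by eGFP, p19Arf+IFNbeta and p19Arf, and the last 3 overlapped one another. Ppbp varied more within groups than most genes did: its pooled within-group SD of 0.494 was at the 98.9th percentile of all genes, whose median was 0.186.

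In IFNbeta minus eGFP the Ppbp difference was 0.87 (SE 0.27, 95% interval 0.31 to 1.44), with a limma adjusted p of 0.9998 over all genes, so it did not pass. It ranked number 37 of 19938 by p there, and no gene passed. That comparison shares the IFNbeta arrays with the one that chose Ppbp, so the rank is partly a result of the choice. Without IFNbeta replicate 3, the array with epidermal transcripts and the highest Ppbp value, the difference was 0.73, and without replicate 2 it was 1.12. In p19Arf+IFNbeta minus IFNbeta the Ppbp difference was -0.99 (SE 0.27, 95% interval -1.56 to -0.43), with a limma adjusted p of 0.150. Only 2 of the 5 arrays with both genes lay below all IFNbeta arrays. This comparison too shares the IFNbeta arrays with the one that chose Ppbp. Without IFNbeta replicate 3 the difference was -0.85 with a limma adjusted p of 0.0496, and 2351 of all genes then passed, against 0 with that array. In p19Arf+IFNbeta minus eGFP, which shares no array with the comparison that chose the list, Ppbp differed by -0.12 (95% interval -0.69 to 0.45, limma adjusted p = 0.847), and the sign turned to 0.05 without eGFP replicate 1. The interaction, the effect of p19Arf in the presence of IFNbeta minus its effect in the absence of IFNbeta, was -0.62 for Ppbp (SE 0.39, limma adjusted p = 1). It uses arrays of the comparison that chose the gene, 0 genes passed it and 260 had an unadjusted p under 0.05.

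Pf4 also had its highest mean in the IFNbeta group and its lowest in the p19Arf group, with smaller differences. Both genes were chosen for a difference between these groups, so the shared extremes follow from the choice. The eGFP arrays read 10.58, 10.59, 10.12, 10.20 and 10.06 (10.31 ± 0.25, SD, n = 5) and the IFNbeta arrays 10.64, 10.13, 10.98, 10.25 and 10.37 (10.47 ± 0.34, SD, n = 5). The p19Arf arrays read 10.15, 9.76, 10.20, 9.31 and 10.20 (9.92 ± 0.39, SD, n = 5), and those with both genes 10.46, 10.68, 10.32, 10.13 and 9.84 (10.29 ± 0.32, SD, n = 5). The low mean of the p19Arf group rested on replicates 2 and 4, and its other 3 arrays lay within the eGFP range. The IFNbeta, eGFP and p19Arf+IFNbeta groups overlapped widely, and their means did not differ beyond the spread of their arrays. Its within-group SD of 0.33 was at the 93.4th percentile of all genes.

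In p19Arf minus eGFP the Pf4 difference was -0.39 (SE 0.19, 95% interval -0.78 to 0.0022, limma adjusted p = 0.661), and it was -0.23 without p19Arf replicate 4 and -0.09 with array weights. IFNbeta minus eGFP gave 0.16 (95% interval -0.23 to 0.55, limma adjusted p = 0.9998), and 0.03 without IFNbeta replicate 3. The group with both genes differed from eGFP by -0.02 (95% interval -0.41 to 0.36, limma adjusted p = 0.957), a value whose sign turned under 4 of the alternative settings. From p19Arf it differed by 0.36 (SE 0.19, limma adjusted p = 0.998). None of these passed.

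**Figure D1:**
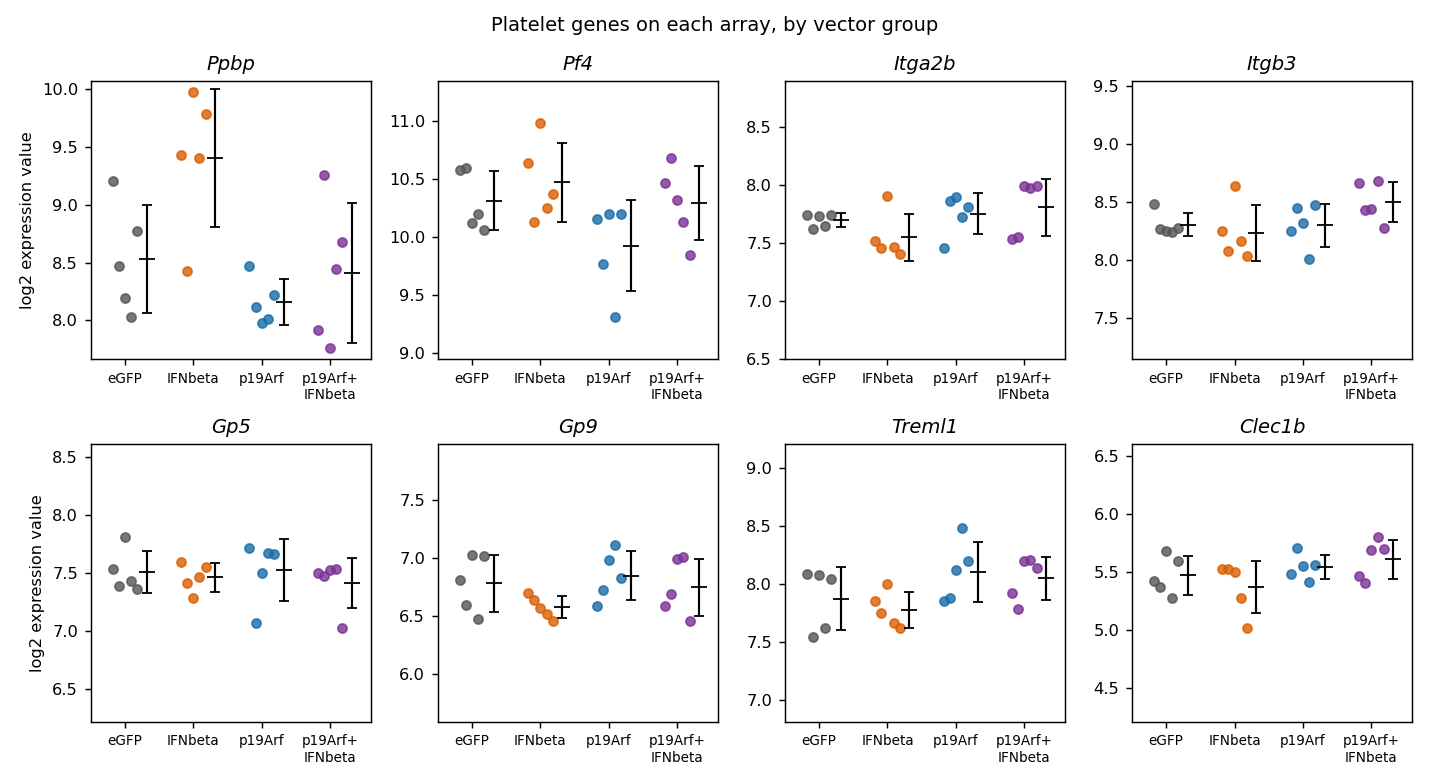
Log2 expression value of each of the 8 genes (vertical axis) on every array, by vector group (horizontal axis), with the group mean and 1 SD as a bar beside the 5 points. All panels span the same number of log2 units, and the groups separate most for Ppbp, where 4 of the 5 IFNbeta arrays lie above every eGFP array.

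The fibrinogen receptor genes Itga2b and Itgb3 had their highest means in the group with both genes and their lowest in the IFNbeta group, but by small steps. Itga2b read 7.74, 7.61, 7.73, 7.65 and 7.74 on the eGFP arrays (7.69 ± 0.06, SD, n = 5) and 7.52, 7.45, 7.90, 7.46 and 7.40 on the IFNbeta arrays (7.55 ± 0.20, SD, n = 5). It read 7.45, 7.86, 7.90, 7.73 and 7.81 with p19Arf (7.75 ± 0.18, SD, n = 5) and 7.53, 7.55, 7.99, 7.98 and 7.99 with both genes (7.81 ± 0.24, SD, n = 5). Of the IFNbeta arrays 4 lay below all eGFP arrays, while replicate 3, the array with epidermal transcripts, lay above all of them. The arrays with both genes split into a low pair, replicates 1 and 2, and a high set of 3. Itgb3 read 8.48, 8.27, 8.25, 8.24 and 8.28 on the eGFP arrays (8.30 ± 0.10, SD, n = 5) and 8.25, 8.07, 8.63, 8.16 and 8.03 on the IFNbeta arrays (8.23 ± 0.24, SD, n = 5). It read 8.25, 8.45, 8.31, 8.01 and 8.47 with p19Arf (8.30 ± 0.19, SD, n = 5) and 8.67, 8.43, 8.44, 8.68 and 8.27 with both genes (8.50 ± 0.17, SD, n = 5). Here too IFNbeta replicate 3 was the highest of its group, and all 4 groups overlapped.

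Both integrin genes had higher means with both vectors' genes than with IFNbeta alone: the Itga2b difference was 0.26 (SE 0.12, limma adjusted p = 0.174) and the Itgb3 difference 0.27 (SE 0.12, limma adjusted p = 0.168). Neither passed in the fit to all 20 arrays. Without IFNbeta replicate 3 the differences were 0.35 (limma adjusted p = 0.0462) and 0.37 (limma adjusted p = 0.0383), and both passed, among 2351 of the 19938 genes. With the array spread as a covariate they were 0.08 and 0.20, with limma adjusted p-values of 0.978 for each. Against eGFP, the combined group differed by 0.11 for Itga2b (95% interval -0.13 to 0.35) and by 0.19 for Itgb3 (95% interval -0.04 to 0.43), with limma adjusted p-values of 0.636 and 0.378.

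Gp5 and Gp9, the von Willebrand factor receptor components that were measured, differed little between groups. Gp5 had group means between 7.41 ± 0.22 (p19Arf+IFNbeta) and 7.52 ± 0.27 (p19Arf; SD, n = 5 each), and its single arrays ran from 7.03 to 7.81. Its differences from eGFP were -0.04 (IFNbeta), 0.02 (p19Arf) and -0.09 (both genes), and the last had a 95% interval of -0.35 to 0.17. Gp9 had group means of 6.78 ± 0.25 (eGFP), 6.58 ± 0.09 (IFNbeta), 6.85 ± 0.21 (p19Arf) and 6.75 ± 0.24 (p19Arf+IFNbeta; SD, n = 5 each). The 5 IFNbeta arrays of Gp9 were the tightest set, from 6.46 to 6.70, and only 1 of them lay below all eGFP arrays. The Gp9 difference in IFNbeta minus eGFP was -0.21 (95% interval -0.47 to 0.06, limma adjusted p = 0.9998). The other subunits of this complex, Gp1ba and Gp1bb, have no probe set with a single symbol here.

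Treml1 and Clec1b, the activation marker and the podoplanin receptor, had their lowest means in the IFNbeta group as well. Treml1 stood at 7.87 ± 0.27 (eGFP), 7.78 ± 0.16 (IFNbeta), 8.11 ± 0.26 (p19Arf) and 8.05 ± 0.19 (p19Arf+IFNbeta; SD, n = 5 each). In p19Arf minus eGFP its difference was 0.23 (95% interval -0.05 to 0.51, limma adjusted p = 0.664), with 3 of 5 p19Arf arrays above all eGFP arrays. Clec1b stood at 5.47 ± 0.17 (eGFP), 5.37 ± 0.23 (IFNbeta), 5.54 ± 0.11 (p19Arf) and 5.61 ± 0.17 (p19Arf+IFNbeta; SD, n = 5 each). On Clec1b, 3 of the 5 arrays with both genes lay above all eGFP arrays, and the difference from eGFP was 0.14 (95% interval -0.09 to 0.37, limma adjusted p = 0.518).

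Across the 5 tested comparisons, 0 of the 8 genes passed at a limma adjusted p under 0.05, against a background of 0.00% of all genes in each of them. In p19Arf+IFNbeta minus eGFP, the comparison with no array in common with the one that chose the list, 0 of the 8 genes had an unadjusted p under 0.05, where 17.6% of all genes did. There 4 genes had a higher and 4 a lower mean, against 55.0% of all genes with a higher mean, and the median difference was 0.04, against 0.02 over all genes. The other 4 comparisons each share 1 arm with the one that chose the list. In IFNbeta minus eGFP, 1 of 8, Ppbp, had an unadjusted p under 0.05 (2.79% of all genes, 1.34% with a higher mean), 2 genes had a higher mean (44.2% of all genes), and the median was -0.08, against -0.02 over all genes. In p19Arf minus eGFP, 0 of 8 had an unadjusted p under 0.05 (7.25% of all genes), 5 had a higher mean (54.4% of all genes), and the median was 0.04, against 0.02 over all genes. In p19Arf+IFNbeta minus p19Arf, 0 of 8 had an unadjusted p under 0.05 (3.07% of all genes), 5 had a higher mean (46.9% of all genes), and the median was 0.06, against -0.01 over all genes.

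In the comparison of the combined group with IFNbeta alone, Ppbp and 5 of the 6 receptor genes had differences of opposite sign. Ppbp, at -0.99, stood on one side, and Itga2b, Itgb3, Clec1b and Treml1, at 0.26, 0.27, 0.24 and 0.27, on the other. Of the 8 genes 3 (Itga2b, Itgb3 and Clec1b) had an unadjusted p under 0.05 with a higher mean (11.8% of all genes) and 1, Ppbp, with a lower mean (14.0% of all genes). A higher mean was found for 5 of the 8 (57.1% of all genes), and the median difference was 0.21, against 0.05 over all genes. The count of genes past the adjusted threshold turned on 1 array: without IFNbeta replicate 3 it was 3 of the 8 (Ppbp, Itga2b and Itgb3), and over all genes it went from 0 to 2351. With array weights, which gave that array a weight of 0.407, only Itgb3 passed, at 0.33 (limma adjusted p = 0.0415), and 1730 genes passed in all. Treml1 in this comparison was 0.06 with the array spread as a covariate.

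IFNbeta minus p19Arf, the comparison behind the list, is given as description. Ppbp differed by 1.25 (SE 0.27) and Pf4 by 0.55 (SE 0.19), and for each of them 4 of the 5 IFNbeta arrays lay above all p19Arf arrays. The 6 receptor genes had the opposite sign, from -0.06 (Gp5) to -0.33 (Treml1), so that 2 of 8 had a higher mean in IFNbeta, against 45.5% of all genes. Over all genes 5 (0.0251%) passed there, and no call is read for the 8 genes. Leaving out the 5 arrays of lowest spread, Pf4 differed by 0.16 and Ppbp by 1.04.

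**Figure D2:**
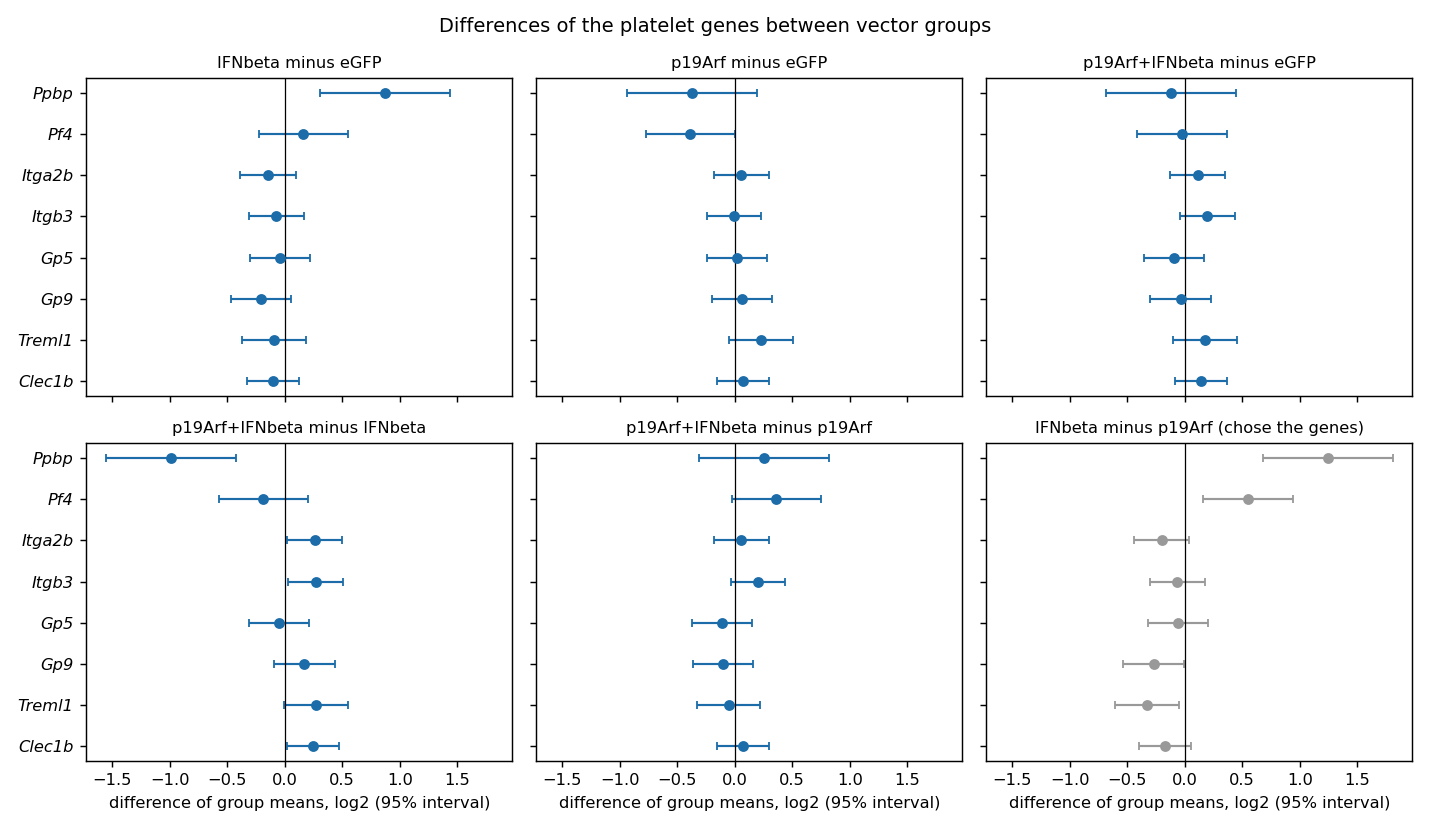
Difference of group means on the log2 scale (horizontal axis) for the 8 genes (vertical axis) in 6 comparisons; points are limma estimates and bars their 95% intervals. Ppbp lies farthest from 0 in the comparisons that involve IFNbeta alone, at 0.87 against eGFP and -0.99 for both genes against IFNbeta, and the grey panel is the comparison that chose the list, shown without a test.

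The 8 genes did not vary as 1 block across the 20 arrays, which bears on their common label as platelet genes. Ppbp and Pf4 had a Pearson r of 0.57 (Spearman rho 0.46), and r was 0.40 within groups, that is, after subtracting group means. That value is given without a test, since both genes were chosen for the same difference. By likeness to Ppbp over 20 arrays, Pf4 ranked number 108 of 19937 genes, and within groups number 232. By likeness to Pf4, Ppbp ranked number 205, and within groups number 956. Among the 6 receptor genes, 12 of 15 pairs had a positive r, with a median of 0.47 and a range from -0.35 to 0.75. Between the chemokine genes and the receptor genes only 2 of 12 pairs had a positive r, with a median of -0.29, and within groups 5 of 12 were positive, with a median of -0.08. The first of these counts includes the group difference on which Ppbp and Pf4 were chosen. One pair stood out from this second set, Pf4 with Itgb3, at 0.44 and, within groups, 0.65.

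The closest receptor pair was Gp9 and Treml1, with r = 0.75 (permutation p = 0.00017, adjusted over 28 pairs 0.0032) and rho = 0.65 (permutation p = 0.0021, adjusted 0.015). It was 0.70 once the 2 arrays with Treml1 values farthest from its median, the extreme arrays of the second measure named, were left out, and 0.74 within groups. Even so, Treml1 ranked number 1473 of 19937 genes by likeness to Gp9, and Gp9 number 2766 by likeness to Treml1. Itga2b and Clec1b had r = 0.71 (permutation p = 0.00023, adjusted 0.0032) and rho = 0.71 (permutation p = 0.00067, adjusted 0.0094), with 0.62 without the 2 extreme arrays and 0.62 within groups. Itga2b and Treml1 had r = 0.68 (permutation p = 0.0011, adjusted 0.010) and rho = 0.74 (permutation p = 0.00032, adjusted 0.0090), with 0.82 and 0.61. The heterodimer partners Itga2b and Itgb3 had r = 0.49 (permutation p = 0.028, adjusted 0.11) and rho = 0.61 (permutation p = 0.0048, adjusted 0.027), with 0.58 and 0.38, and Itgb3 ranked number 5455 by likeness to Itga2b. Gp5 was the exception among the receptor genes, with r = -0.35 against Itga2b, -0.18 against Clec1b and 0.41 against its complex partner Gp9, none of which passed after adjustment.

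**Figure D3:**
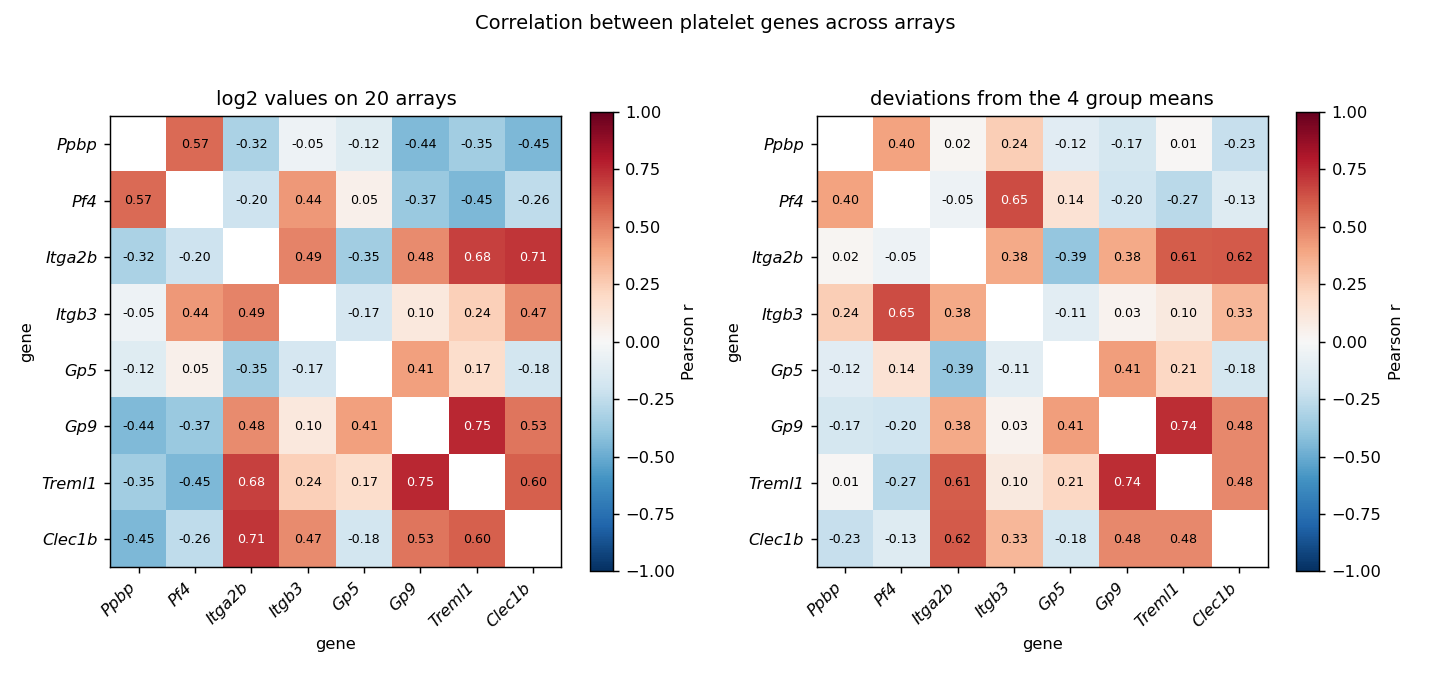
Pearson r between each pair of the 8 genes (both axes) over 20 arrays, for log2 values on the left and for deviations from the 4 group means on the right; red is positive and blue negative. The receptor genes Itga2b, Gp9, Treml1 and Clec1b form a red block, with 0.75 for Gp9 and Treml1, and Ppbp and Pf4 pair with each other at 0.57.

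Of the 6 receptor genes, 3 varied with a property of the whole array past the adjustment of both r and rho. The share of all genes that do so was not computed, so whether the count is particular to receptor genes is not known. Many genes varied like Treml1: Itga2b, at r = 0.68, ranked number 4177 of 19937 by likeness to it. Treml1 was lower where the array spread was higher, with r = -0.81 (permutation p = 1e-05, the smallest that 100000 permutations give, adjusted over 56 relations 0.00028) and rho = -0.88 (permutation p = 1e-05, adjusted 0.00028). It was -0.75 without the 2 arrays of most extreme spread and -0.75 within groups. Itga2b had r = -0.81 (permutation p = 5e-05, adjusted 0.00070) and rho = -0.83 (permutation p = 2e-05, adjusted 0.00037), with -0.88 and -0.79. Clec1b had r = -0.59 (permutation p = 0.0052, adjusted 0.026) and rho = -0.66 (permutation p = 0.0021, adjusted 0.012), with -0.65 and -0.48. The other receptor genes did not pass on both measures. Gp9 had r = -0.47 (permutation p = 0.038, adjusted 0.13) and rho = -0.48 (permutation p = 0.035, adjusted 0.10), with -0.21 and -0.42. Itgb3 had r = -0.40 (permutation p = 0.076, adjusted 0.18) and rho = -0.59 (permutation p = 0.0071, adjusted 0.033), with -0.59 and -0.28. Gp5 had r = 0.26 (permutation p = 0.27, adjusted 0.39) and rho = 0.07 (permutation p = 0.78, adjusted 0.84), with 0.54 and 0.28. For the chemokine genes, whose levels hold the difference that chose them, r is given without a test: 0.19 for Ppbp (rho 0.24, within groups -0.18) and 0.40 for Pf4 (rho 0.31, within groups 0.27). The spread is computed from the same arrays as the genes, and its part in the differences between groups was tested only as a covariate.

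**Figure D4:**
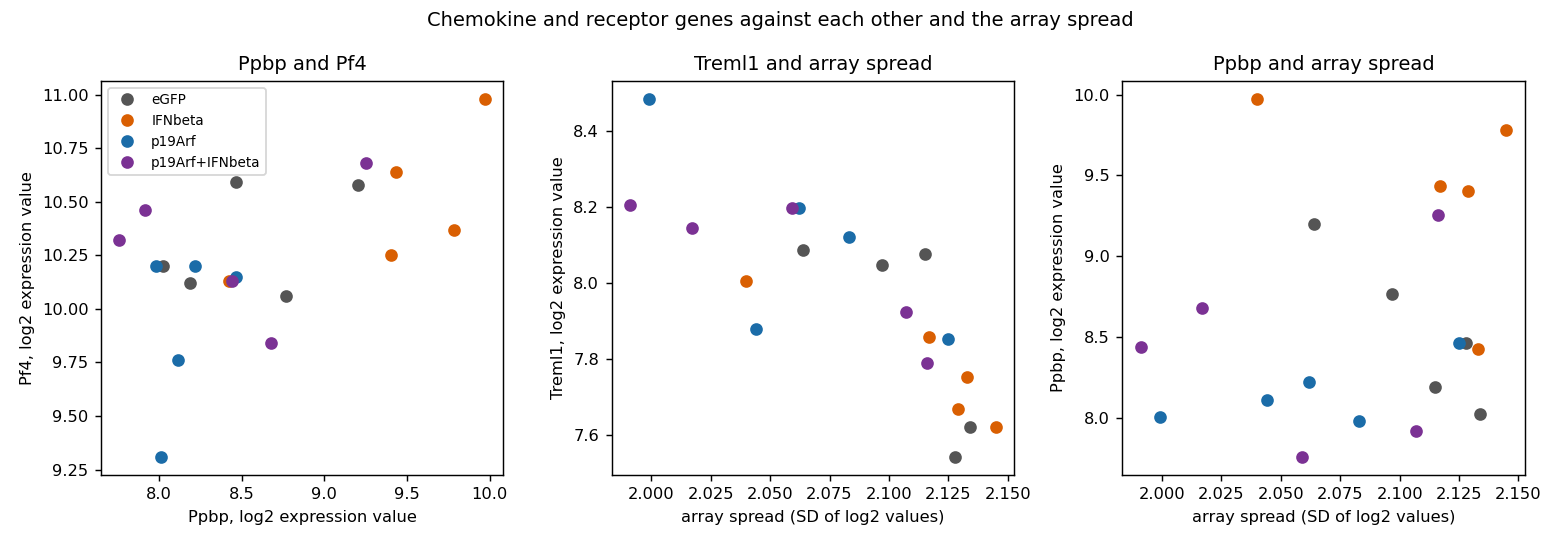
Each point is 1 of 20 arrays, colored by vector group: log2 value of Pf4 against Ppbp (left), and of Treml1 (middle) and Ppbp (right) against the array spread, the SD of the log2 values of that array. Treml1 falls as the spread grows (r = -0.81), whereas Ppbp shows no clear slope (r = 0.19) and its highest point is IFNbeta replicate 3.

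Markers of other cells in the tumor were set beside the genes as scores, the mean log2 value of a marker list on an array. For Ppbp and Pf4 these values are a description with no test, since both were chosen on the levels compared. For Ppbp, r was 0.17 with macrophage and monocyte markers (rho 0.24, within groups -0.10) and 0.04 with neutrophil markers (rho 0.08, within groups 0.07). It was 0.144 with proliferation genes (rho 0.192, within groups -0.181). Values farther from 0 were found with erythroid markers, at -0.405 (rho -0.484, within groups -0.189). Mast cell and basophil markers gave 0.398 (rho 0.358, within groups 0.0784) and endothelial markers 0.385 (rho 0.463, within groups 0.0922). For Pf4, r was 0.413 with macrophage and monocyte markers (rho 0.489, within groups 0.341) and -0.423 with erythroid markers (rho -0.337, within groups -0.361). With endothelial markers it was 0.67 (rho 0.56), 0.44 without the 2 extreme arrays and 0.50 within groups. The score of these 17 endothelial genes ran from 8.12 to 8.30 in the p19Arf group, below every array of the other groups but 1 (eGFP from 8.29, IFNbeta from 8.36, p19Arf+IFNbeta from 8.31), and its part in the Pf4 values was not tested. Of 36 relations of the 6 receptor genes with the 6 lists, 8 passed the adjustment of both r and rho, and 7 of these were negative. The share of all genes with such relations was not computed. Whether the relations are separate from those with the array spread was not tested. The positive relation was Gp9 with the 13 erythroid markers measured, at r = 0.71 (permutation p = 0.00018, adjusted 0.0017) and rho = 0.72 (permutation p = 0.00063, adjusted 0.0050), with 0.63 and 0.66. The globin genes are not among those 13, and the erythroid score ran from 6.94 to 7.21 in eGFP, 6.83 to 6.94 in IFNbeta, 6.84 to 7.10 in p19Arf and 6.88 to 6.99 with both genes. Its part in the Gp9 values was not tested.

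The 7 negative relations were with markers of dividing cells, macrophages and endothelium. Itga2b had r = -0.84 with proliferation genes (permutation p = 1e-05, adjusted 0.00028; rho = -0.88, permutation p = 1e-05, adjusted 0.00028), with -0.84 without the 2 extreme arrays and -0.83 within groups. With macrophage markers it had r = -0.80 (permutation p = 2e-05, adjusted 0.00037; rho = -0.77, permutation p = 0.00012, adjusted 0.0017), with -0.79 and -0.78. Treml1 had r = -0.77 with endothelial markers (permutation p = 9e-05, adjusted 0.0010; rho = -0.63, permutation p = 0.0031, adjusted 0.016), with -0.57 and -0.79. With proliferation genes Treml1 had r = -0.68 (permutation p = 0.0010, adjusted 0.0081; rho = -0.75, permutation p = 0.00024, adjusted 0.0022), with -0.72 and -0.60. The other 3 were of Itgb3 and Clec1b. Itgb3 had r = -0.62 with proliferation genes (permutation p = 0.0033, adjusted 0.019; rho = -0.76, permutation p = 0.00017, adjusted 0.0019), with -0.42 and -0.54. Clec1b had r = -0.63 with proliferation genes (permutation p = 0.0025, adjusted 0.016; rho = -0.66, permutation p = 0.0022, adjusted 0.012), with -0.58 and -0.53. With macrophage markers Clec1b had r = -0.56 (permutation p = 0.0094, adjusted 0.040; rho = -0.56, permutation p = 0.011, adjusted 0.044), with -0.37 and -0.47. The part of these cells in the receptor values was not tested.

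The genes whose values were most like a chemokine gene over the 20 arrays were not platelet genes of the lists used here. For Ppbp they were Ifit3b (r = 0.76), Prkab2 (0.76), Car12 (0.73), Ifi207 (0.73) and Prkcsh (0.72). For Pf4 they were Ifi205 (0.79), Apoe (0.79), Gna13 (0.79), Ifi207 (0.78) and Basp1 (0.77). Ifit3b, Ifi205 and Ifi207 belong to families of interferon-inducible genes, and near-identical relatives can share their probes. Ifit3b stood at 5.74 ± 0.25 (eGFP), 6.57 ± 0.51 (IFNbeta), 5.43 ± 0.28 (p19Arf) and 5.84 ± 0.22 (p19Arf+IFNbeta; SD, n = 5 each), and Ifi205 at 10.61 ± 0.19, 10.87 ± 0.20, 10.15 ± 0.36 and 10.53 ± 0.23. These likenesses include the group difference on which Ppbp and Pf4 were chosen. Within groups none of the 3 remained among the 5 most like genes: for Ppbp these were Usp13 (0.73), Ppp1r3b (0.65), Fbxw24 (0.63), Mcpt2 (0.60) and Banp (0.59). For Pf4 they were Apoe (0.81), Jagn1 (0.75), Gna13 (0.75), Trim30d (0.73) and Abca1 (0.72). Of these, Trim30d stood at 8.88 ± 0.10 (eGFP), 9.51 ± 0.31 (IFNbeta), 8.78 ± 0.39 (p19Arf) and 9.10 ± 0.09 (p19Arf+IFNbeta; SD, n = 5 each). Jagn1 and Abca1 also had their highest means in IFNbeta, Apoe with both genes, and Gna13 read 11.15 in eGFP and IFNbeta alike. Apoe and Abca1 handle cellular cholesterol and are abundant in macrophages.

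The receptor genes were most like genes of unrelated families. For Treml1 these were Mir181c (0.96), Lamc3 (0.95), Mir345 (0.95), Olfr1349 (0.95) and Olfr1395 (0.95). Gp9 was closest to Defb50 (0.93), Dnajb8 (0.93) and Sstr3 (0.92), Itga2b to Ttc34 (0.91) and Krt8 (0.91), Clec1b to Ihh (0.84) and Gtsf1l (0.84), and Gp5 to Vmn2r54 (0.84) and Olfr316 (0.79). Itgb3 was closest to Notch4 (0.91), a Notch receptor of endothelial cells, then Mtus1 (0.84), Kif26b (0.83), Rnf150 (0.83) and Col6a2 (0.83), a collagen VI chain. With the score of the endothelial list Itgb3 had r = 0.20 and rho = -0.0045, and neither passed after adjustment.

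The wider platelet program, taken from lists of surface receptors, granule cargo, signaling proteins and megakaryocyte transcription factors, had 0 genes past a limma adjusted p under 0.05 in any of the 6 comparisons. Of 16 other platelet receptor genes measured, 2 had an unadjusted p under 0.05 with a higher (1.34% of all genes) and 0 with a lower mean in IFNbeta minus eGFP. In p19Arf+IFNbeta minus eGFP the counts were 0 higher and 3 lower, against 6.18% and 11.4% of all genes. Cd36, a scavenger receptor of platelets, macrophages and endothelium, differed by 0.82 in IFNbeta minus eGFP (SE 0.24, limma adjusted p = 0.9998), and its 5 IFNbeta arrays (8.62 to 9.52) lay above all 5 eGFP arrays (7.93 to 8.58). Such non-overlap with higher values was seen in 0.552% of all genes. P2ry12, the platelet ADP receptor, differed by -0.48 in p19Arf minus eGFP and by -0.45 with both genes (limma adjusted p = 0.661 and 0.246).

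Of 17 granule genes, 13 had a higher mean in IFNbeta than in p19Arf, the comparison that chose Ppbp and Pf4, against 45.5% of all genes, and 3 had a higher mean in p19Arf than in eGFP, against 54.4%. Lists of other cells had like counts: 13 and 3 of 17 endothelial genes, 13 and 3 of 18 macrophage genes and 13 and 1 of 14 proliferation genes. The factor XIII subunit F13a1 differed by -0.62 and Nbeal2, a gene of alpha granule formation, by 0.56 in p19Arf+IFNbeta minus eGFP (limma adjusted p = 0.234 each). The 20 signaling genes had 3 higher and 3 lower at an unadjusted p under 0.05 in that comparison, against 6.18% and 11.4% of all genes, among them the kinase Syk at 0.60 and the regulator Rgs18 at -0.65 (limma adjusted p = 0.234 each). The 14 megakaryocyte transcription factor and regulator genes had 0 at an unadjusted p under 0.05 in IFNbeta minus eGFP (2.79% of all genes). They also had 0 in p19Arf+IFNbeta minus eGFP (17.6%), and their median differences were -0.03 and 0.02. In the latter, all 5 Gata2 arrays with both genes lay below the eGFP arrays, as in 0.547% of all genes. In p19Arf minus eGFP 2 were lower (7.25% of all genes, either sign), and in p19Arf+IFNbeta minus p19Arf 1 was higher (3.07%). In p19Arf+IFNbeta minus IFNbeta there were 0 (11.8% higher and 14.0% lower). IFNbeta minus p19Arf, which chose the list, had 2 higher and 1 lower. The erythroid and megakaryocyte factor Gata1 stood at 6.71 ± 0.10, 6.65 ± 0.13, 6.80 ± 0.26 and 6.82 ± 0.22 in eGFP, IFNbeta, p19Arf and both genes (SD, n = 5 each), and Tubb1, the platelet beta-tubulin, at 7.98 ± 0.16, 7.88 ± 0.17, 7.91 ± 0.30 and 7.88 ± 0.18. Their values overlapped between all groups.

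Partners of the 8 genes were read from the same tumors. Among 13 other CXC ligands and receptors, the neighbors Cxcl3 and Cxcl2, ligands of the Ppbp receptor Cxcr2, had their highest means with both genes: the differences from eGFP were 0.68 (SE 0.16) and 0.81 (SE 0.31), with a limma adjusted p of 0.234 each. Of the 5 arrays with both genes, 4 for Cxcl3 and 2 for Cxcl2 lay above all eGFP arrays. Ppbp, in the same cluster, had no such excess over eGFP, at -0.12. The cluster genes Cxcl5, Cxcl15 and Cxcl1 each differed there by less in size than Cxcr2. Cxcr2 itself differed from eGFP by 0.32 in IFNbeta (limma adjusted p = 0.9998) and by 0.33 with both genes (limma adjusted p = 0.460). Podoplanin (Pdpn), the ligand of Clec1b, differed by 0.62 in p19Arf+IFNbeta minus eGFP (SE 0.22, limma adjusted p = 0.234), with only 1 of 5 arrays above all eGFP arrays. Fibronectin (Fn1), a ligand of the integrins, and integrin alpha-v (Itgav), the other partner of Itgb3, both differed by -0.41 there (limma adjusted p = 0.234 and 0.235). Of 20 coagulation genes the thrombin receptor F2r differed most, at -0.54 (SE 0.12, limma adjusted p = 0.234), and all 5 arrays with both genes (9.91 to 10.46) lay below the eGFP arrays (10.49 to 10.98), as did the arrays of 0.547% of all genes.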

How the data were processed

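Expression was read from the table of log2 values that the authors deposited, 35556 probe sets on 20 Affymetrix arrays. The submitters' processing notes name Affymetrix Expression Console and GCOS; no source used here gives the summarisation, background correction or build, and the log base was read from the range of values (2.33 to 14.7). Of the probe sets, 21789 carry 1 gene symbol in the platform annotation, and the probe set of highest mean over the arrays stood for each gene, which gave 19938 genes with no filter. Genes were fitted with limma 3.58.1 in R 4.3.3 (1 mean per group, eBayes, 16 residual degrees of freedom), with 2-sided p-values adjusted by Benjamini-Hochberg over all genes of a comparison. The fit was tested on simulated data. Correlations used 100000 permutations, 2-sided. The members and lists were chosen with earlier results of these data known. Named genes were all 8 members, up to 3 genes of largest difference per list and comparison, and the 5 genes most like each member. The epidermal list, the vector genes, Tubb1 and Gata1 as single examples, the interaction and the fit without the 5 arrays of lowest spread were added after the values were seen. The alternatives were quantile normalization, median centring, array spread as a covariate, array weights, trended robust variances, other probe set rules, a level filter, the compared groups only, a replicate block and leaving out each array. Labels and table name no batch.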

Additional observations from a re-analysis of the deposited data

Results flagged for a closer look

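For 3 values the array lay far from the other 4 of its group. Itga2b in IFNbeta replicate 3 was the highest of its group at 7.90, with the others from 7.40 to 7.51. Itgb3 in eGFP replicate 1 was the highest of its group at 8.48, with the others from 8.24 to 8.28. Gp5 in p19Arf+IFNbeta replicate 5 was the lowest of its group at 7.03, with the others from 7.48 to 7.53. In each the gap to the nearest array was more than 0.71 of the range of the group. Of the 32 sets of 5 values examined, chance puts about 1 in 20 past this limit. IFNbeta replicate 3 is also the array with the epidermal transcripts.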

How the results depend on the processing

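Of 984 pairs of a member difference and an alternative setting, 981 differed from the main fit by less than the pooled replicate SD and 52 changed sign. The 480 pairs that leave out 1 array cannot pass that limit with 5 arrays per group. The replicate block, level filter, probe set rules, compared groups only and trended robust variances leave the member differences as they were. The 981 is therefore no measure of stability. The 3 that moved further were Itga2b in p19Arf minus eGFP (-0.09) and Treml1 in p19Arf+IFNbeta minus IFNbeta (0.06), both with the array spread as a covariate, and Pf4 in IFNbeta minus p19Arf (0.16) without the 5 arrays of lowest spread. The count of members past the limma adjusted threshold differed from 0 in 4 of 126 fits. With array weights it was 1 in p19Arf+IFNbeta minus IFNbeta and 4 in IFNbeta minus p19Arf. Leaving out each array in turn it ran from 0 to 3 in the first, with 3 without IFNbeta replicate 3, and from 0 to 1 in the second, with 1 without IFNbeta replicate 2; the cause was not tested. The second comparison chose the list, so its counts are no test of the 8 genes. Over all genes the counts with array weights were 5 (IFNbeta minus eGFP), 166 (p19Arf+IFNbeta minus eGFP), 1730 (p19Arf+IFNbeta minus IFNbeta) and 4495 (IFNbeta minus p19Arf), against 0, 0, 0 and 5. Leaving out 1 array took them to at most 84 (without eGFP replicate 1), 2351 (without IFNbeta replicate 3) and 28 (without p19Arf replicate 1) in the last 3, and the last was 0 after quantile normalization, with the spread as a covariate and with the compared groups only. With replicate number as a block (replicate block), 0 members passed in each of the 6 comparisons, and the count over all genes was 1 in IFNbeta minus p19Arf and 0 in the others. Arrays of the same number did not deviate together: over 30 such pairs the correlation of deviations had a median of -0.05 (from -0.62 to 0.66), 11 were over 0.1, and 3 of 20 arrays matched best with their own number. No pairing by number was thus seen on average, but these values cannot exclude that arrays of 1 number shared a step of handling. Scaling moved the median of all genes by less than 0.1 in each comparison. The table has no signal over background, so what dim probe sets measure is not known.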
